A study of Mus musculus with 15 samples.

Results

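Cultured mouse cardiomyocytes were examined here for the 2 cardiac natriuretic peptide genes, Nppa and Nppb, the peptide-processing enzyme Corin, the 3 receptors Npr1, Npr2 and Npr3, and 2 further genes used as markers of hypertrophy, Ankrd1 and Rcan1. These 8 genes were chosen by name, and all 8 were among the 14337 genes of the expression table. Nppa, Ankrd1 and Nppb ranked at or near the top of every library, and Npr1 lay near the bottom of the table in every library. With all libraries counted equally, none of the 7 members with levels high enough to be tested passed the test in any comparison of treatment groups (limma). Npr1, too low to be tested, was higher in all AngII and AngII + ldCil libraries than in any control library, although its ranks in the libraries overlapped. Of the genes tested, 8.74% showed no overlap between AngII and control, and 13.5% none between AngII + ldCil and control. The spread between libraries was large for Corin, Npr3 and Nppb. The 6 highest values of Npr3 fell in 6 libraries that share high atrial markers and the lowest interferon response, and not a treatment.

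Atrial and B-type natriuretic peptides are hormones that stretched or stressed cardiomyocytes release, and raised expression of their genes is a classical sign of cardiac hypertrophy. Corin, a membrane-bound serine protease, cleaves the atrial precursor to its active form. Npr1 and Npr2 are receptors with guanylyl cyclase activity that make cGMP, whereas Npr3 mainly clears the peptides from the circulation. Ankrd1 encodes a nuclear and sarcomeric ankyrin repeat protein of the titin complex that responds to stretch, and Rcan1 encodes an inhibitor of the phosphatase calcineurin that is itself a target of the calcineurin-NFAT pathway.

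The cells came from whole hearts of C57/BL6 wild-type pups aged 1 to 3 days, so atrial and ventricular cells were not separated, and any preparation may hold both. After 5 days in culture and 24 h of serum starvation (0.5% FBS), treatment began on day 6 and was repeated a day later, with lysis on day 8. Control cells received saline (3 libraries: S1, S2 and S3), and AngII cells received angiotensin II at 1 µM (4 libraries: S5, S6, S7 and S8). The ldCil cells received cilengitide, which targets αvβ3 integrin, at the low dose of 20 nM (4 libraries: S9 to S12). AngII + ldCil cells received both at the same doses (4 libraries: S13, S14, S15 and S16). AngII was used to model the stress of heart failure in culture, and the comparisons ask whether AngII moves these genes, whether ldCil does so alone, and whether ldCil changes the level in AngII-treated cells. Poly(A) RNA was sequenced, and each value is a log2 RPKM, that is, reads scaled to gene length and library size on a log2 scale, after conditional quantile normalisation by the authors. A difference of 1 is a 2-fold difference. The labels do not say whether the libraries of a group are separate cultures or separate animals, so p-values reflect no more than how these libraries differ among themselves, and that spread may be technical.

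A few properties of the whole table bear on every member. Sequencing depth is unknown, because counts of reads are not part of the table, and counting error cannot be given. At the top 4684 ranks all 15 libraries hold the same values, to within 1e-06, so the value of a gene in that range is set by its rank in its library. The 10 cardiomyocyte markers were present throughout, with Actc1, Myh6 and Tnnt2 among the highest, and fibroblast, smooth muscle, endothelial and macrophage markers were measured too. The first principal component held 49% of the variance. In 6 libraries (S6 and S7 of AngII, S11 and S12 of ldCil, S15 and S16 of AngII + ldCil) the mean of the 8 atrial cardiomyocyte markers tested, each centred on its mean over all libraries, lay between 0.66 and 1.37, and in the other 9 libraries between -0.93 and -0.62. All 3 control libraries were among these 9. Of the 9 atrial markers in the table, 8 were higher in each of the 6 libraries than in any of the 9. Gja5 was the exception. The 6 libraries were set apart by the mean of these same markers, so this count follows largely from that choice. Of 11 endothelial and endocardial markers, 2 (Npr3 and Nfatc1) were also higher in each of the 6. The counts were 0 of 10 for cardiomyocyte, 0 of 6 for ventricular, 0 of 10 for fibroblast, 0 of 8 for macrophage and 0 of 6 for smooth muscle markers. In the other direction, 2 of 10 fibroblast markers (Dcn and Col1a1), 2 of 8 macrophage markers (Csf1r and Adgre1) and 1 of 11 endothelial markers (Eng) were lower in each of the 6 libraries than in any of the 9. Sln, the sarcolipin gene, lay between 5.33 and 6.72 in the 6 libraries and between 3.44 and 4.17 in the 9, and Bmp10, a growth factor of the atrium, between 7.33 and 8.24 against 3.53 to 5.00. The mean of 19 interferon response genes also differed between libraries. It was 2.10 to 2.73 in S1, S3, S5, S9 and S10, 0.45 in S2, and -0.83 to -0.39 in S8, S13 and S14. In the 6 libraries with high atrial markers it was lowest, from -1.961 to -1.555. High atrial markers and a low interferon response thus cannot be told apart in this split of the libraries. S16 stood apart in its fibroblast and macrophage markers too, with a mean of -1.44 for each list. None of the 6 erythroid markers is in the table. In bulk RNA, fewer cells of a type and less RNA per cell cannot be told apart.

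**Figure D1:**
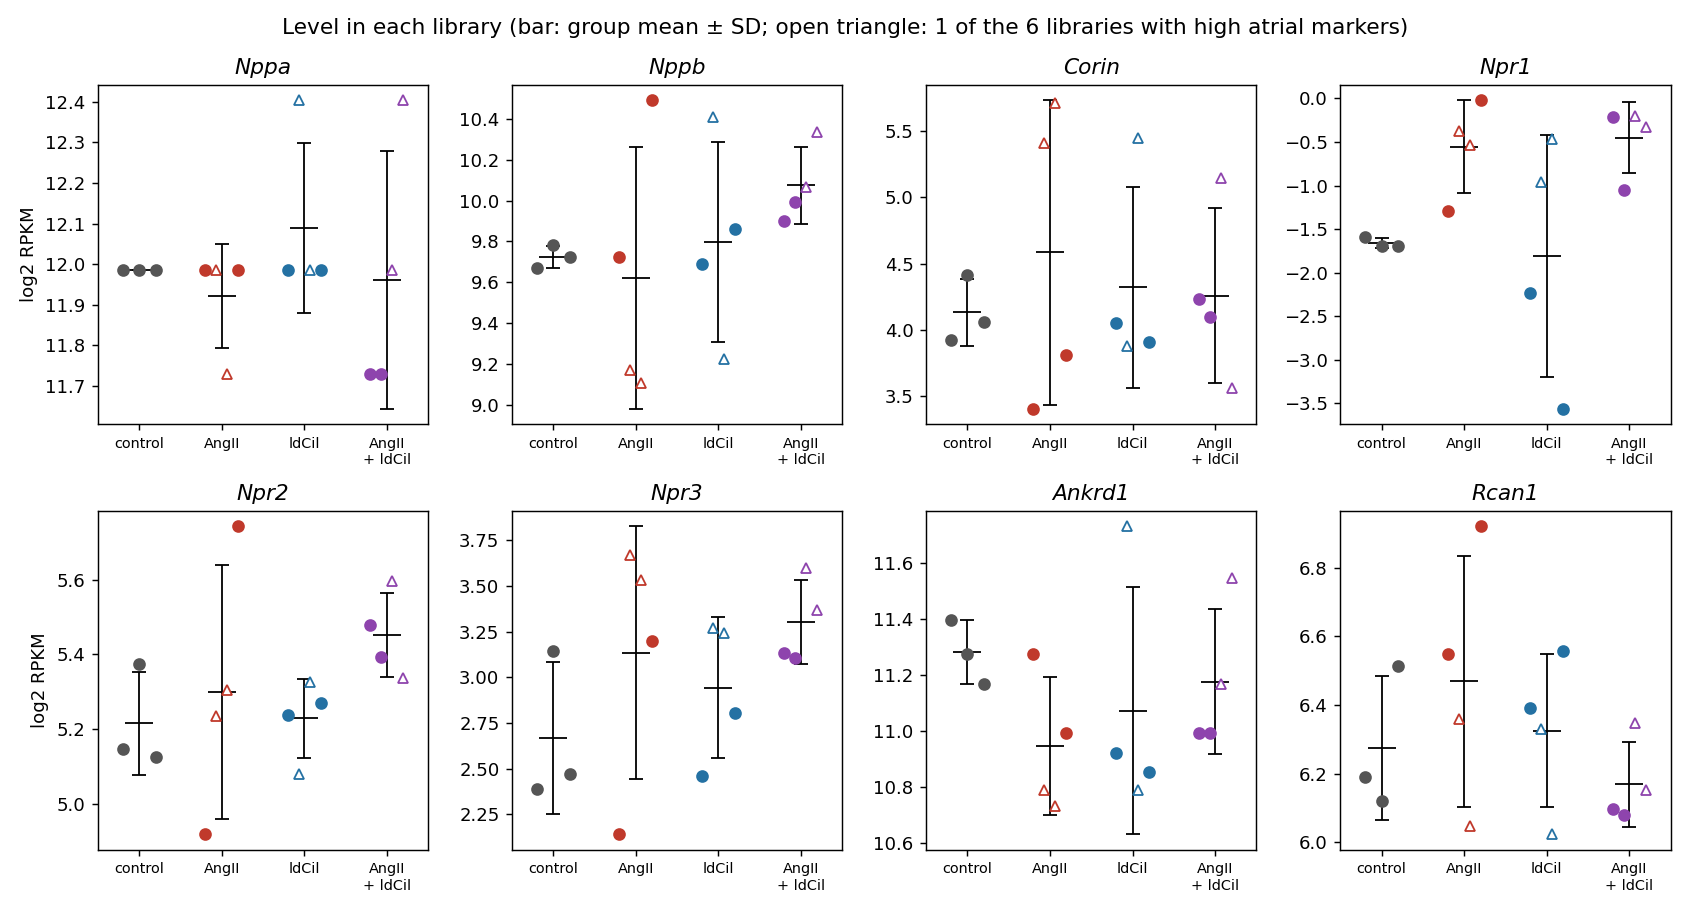
Level of each member (log2 RPKM, vertical axis, a separate scale for each gene) in the 15 libraries, by treatment group. Horizontal marks with bars are the group mean ± SD (3 libraries for control, 4 for each other group), and open triangles are the 6 libraries with high atrial markers. Nppa takes only 3 values, Npr1 is separated from control in AngII and AngII + ldCil, and for Corin and Npr3 the highest points are triangles.

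The plot of levels by group shows all 8 members, and the order of their levels, which are per gene length and so can be compared between genes, hardly changed between libraries. Nppa was the highest member, followed by Ankrd1, Nppb and Rcan1, in all 15 libraries. Npr2 came next in 12 libraries and Corin in the other 3 (S6, S7 and S12), and Npr3 and then Npr1 closed the order in all 15. Nppa exceeded Nppb by 1.49 to 2.82 on the log2 scale, Corin exceeded Npr3 by 0.19 to 2.21, and the level of Npr1 minus that of Npr3 was between -6.36 and -3.22. The share of a member's variance that lay between the 4 treatment groups ran from 5.3% for Corin to 44.9% for Npr1, beside a median of 18.3% over all genes tested. Npr1 was not among the genes tested, and the highest share of a tested member was 24.1%, for Npr3. When the 4 group means of each member were put in order, 23 of the 24 steps between neighbours were smaller than the larger SD of the pair, and the exception was the step from control to AngII for Npr1.

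Nppb and Nppa lie in this order, 13516 bases apart and both on the plus strand of chromosome 4 (Nppb at chr4:147985788-147987205, Nppa at chr4:148000722-148002079, build GRCm38). Their promoters have long been known for binding sites of cardiac GATA factors, and the promoters of stretch-responsive genes for the M-CAT element bound by TEAD factors. The sequences are shown because both peptide genes and Ankrd1 were among the members whose values went together in part, with a Pearson r of 0.50 to 0.74. Shared regulation was not tested. The promoter windows are those of RefSeq on GRCm38.p6, and each was searched on both strands from 250 bases upstream to the start for 3 sets of letters: GATA sites (the letters GATA with an A or T before them and an A or G after them), M-CAT (CATTCC) and the NFAT core (GGAAAA). Capitals mark the matches, and every sequence is read 5′ to 3′ along its gene. For Nppb the stretch of the 3 matches is printed (chr4:147985794-147985822, plus strand), with CATTCC on the opposite strand followed by a pair of GATA sites. This stretch lies inside the annotated gene given above, after its start, and the window overlaps an annotated exon of Nppb. For Nppa the whole window is printed (chr4:148000472-148000721, plus strand), with 1 GATA site from 122 to 117 bases before the start.
Nppb: aGGAATGcagcTGATAAatcagAGATAAc
Nppa: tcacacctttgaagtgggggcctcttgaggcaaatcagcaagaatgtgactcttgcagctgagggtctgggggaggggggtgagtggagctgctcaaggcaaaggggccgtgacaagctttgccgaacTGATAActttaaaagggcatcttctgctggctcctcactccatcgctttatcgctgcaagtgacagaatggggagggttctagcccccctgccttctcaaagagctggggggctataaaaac
Of 32851 RefSeq promoter windows of the same length, 26.5% held a GATA site, 12.6% held M-CAT and 20.4% held the NFAT core. Among the members, a GATA site was found for Nppa, Nppb and Ankrd1, M-CAT for Nppb and Ankrd1, and the NFAT core for Corin and at 1 of the 2 starts of Rcan1. A match describes the letters and is not evidence of binding.

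Nppa, the atrial natriuretic peptide gene, was among the 3 highest genes of every library. Its log2 RPKM was 11.98 in all 3 control libraries (S1, S2, S3). In AngII it was 11.98 in S5, S6 and S8 and 11.73 in S7. In ldCil it was 11.98 in S9, S10 and S12 and 12.40 in S11. The AngII + ldCil libraries took all 3 values, with 11.73 in S13 and S14, 11.98 in S15 and 12.40 in S16. These are the values at ranks 3, 2 and 1, so that Nppa moved by at most 1 rank from its place in control. The genes that changed places with it were mt-Co1, the mitochondrial cytochrome oxidase subunit at rank 1 in 13 libraries and at rank 2 in S11 and S16, the cardiac actin gene Actc1, at rank 2 in S13 and S14, and mt-Nd5, a subunit of complex I, at rank 2 in S7. Group means were 11.98 for control, 11.92 ± 0.13 (SD, n = 4) for AngII, 12.09 ± 0.21 (n = 4) for ldCil and 11.96 ± 0.32 (n = 4) for AngII + ldCil. The difference between AngII and control was -0.06 on the log2 scale with a 95% confidence interval from -0.47 to 0.34 (limma, adjusted p = 0.956), that is, a fold of 0.957 (0.723 to 1.27). Between AngII + ldCil and AngII the fold was 1.03 (0.794 to 1.33, limma, adjusted p = 1.00). A step of 1 rank is worth 0.42 between ranks 1 and 2 and 0.25 between ranks 2 and 3, so a smaller change in Nppa that left its rank in place could not be seen in these values.

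An antisense RNA, Gm13054, is annotated on the minus strand across Nppa and has a value of its own in the table. Whether the counting used strand is not given in the sources used here, so reads of Nppa and Gm13054 cannot be told apart. Gm13054 stood at 4.95 in S11 and 4.49 in S16, the libraries in which Nppa ranked first, and between 2.99 and 4.10 in the other 13 libraries. Its values were therefore highest where Nppa was highest. Nppb and Ankrd1 overlap no other annotated gene.

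**Figure D2:**
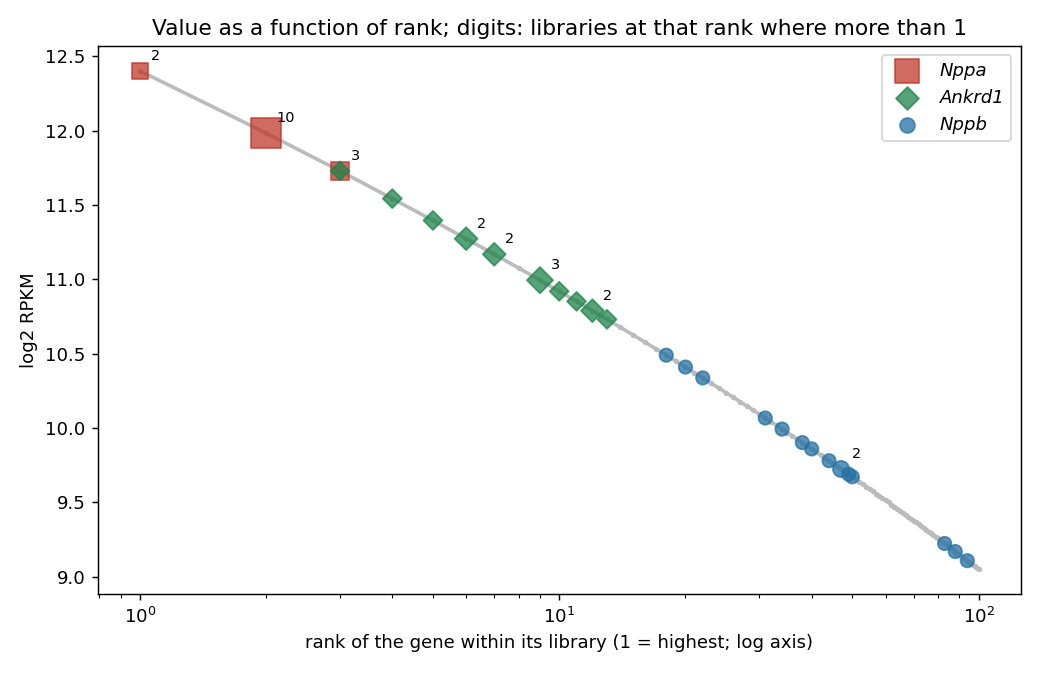
Log2 RPKM (vertical axis) against rank within the library (horizontal axis, log scale) for the top 100 ranks, where all 15 libraries share 1 curve (grey). Squares, diamonds and circles are Nppa, Ankrd1 and Nppb in the 15 libraries, with the number of libraries at a point where it is above 1. Nppa sits at rank 2 in 10 libraries, Ankrd1 between ranks 3 and 13, and Nppb between ranks 18 and 94.

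The curve of value against rank shows that Nppb and Ankrd1 lie on the same shared curve as Nppa, but in a range where steps between ranks are smaller. For Nppb, the B-type natriuretic peptide gene, the control libraries were close together, with a log2 RPKM of 9.67 in S1, 9.78 in S2 and 9.73 in S3. The AngII libraries spread to both sides of control, with 9.73 in S5, 9.17 in S6, 9.11 in S7 and 10.49 in S8. The ldCil libraries did the same, with 9.86 in S9, 9.69 in S10, 10.41 in S11 and 9.22 in S12. All 4 AngII + ldCil libraries were above every control library, with 9.90 in S13, 9.99 in S14, 10.07 in S15 and 10.34 in S16. In ranks, Nppb was at 44 to 50 in control, 18 to 94 in AngII, 20 to 83 in ldCil and 22 to 38 in AngII + ldCil. Means were 9.73 ± 0.05 (SD, n = 3) for control, 9.62 ± 0.64 (n = 4) for AngII, 9.80 ± 0.49 (n = 4) for ldCil and 10.08 ± 0.19 (n = 4) for AngII + ldCil.

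Nppb was not called in any comparison. AngII against control gave -0.10 (95% confidence interval -0.75 to 0.55, limma, adjusted p = 0.956), and ldCil against control 0.07 (-0.58 to 0.72, adjusted p = 0.987). AngII + ldCil was 0.35 above control (-0.30 to 1.00, limma, adjusted p = 0.896), with no overlap between the 7 libraries and an exact 2-sided permutation p of 0.0571, where the smallest p that 3 against 4 libraries allow is 0.0286. AngII + ldCil was 0.45 above AngII (-0.15 to 1.05, adjusted p = 1.00), with overlap, since S8 of AngII was the highest library of all. The direction of the AngII difference rested on S6 and S7: without S6 it was 0.05, without S7 it was 0.07, and with all 6 libraries of high atrial markers left out it was 0.38 (standard error 0.20, limma, adjusted p = 0.406). With those 6 left out, AngII + ldCil was 0.16 below AngII (standard error 0.22, adjusted p = 0.776). The part of the atrial markers in these values was not tested.

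Corin, at chr5:72300025-72504473 on the minus strand, varied more between libraries than any other tested member. Its log2 RPKM in control was 3.92 in S1, 4.41 in S2 and 4.06 in S3. In AngII it was 3.41 in S5, 5.41 in S6, 5.72 in S7 and 3.81 in S8, which leaves no library near the group mean of 4.58 ± 1.15 (SD, n = 4). In ldCil it was 3.91 in S9, 4.05 in S10, 3.88 in S11 and 5.45 in S12, and in AngII + ldCil it was 4.23 in S13, 4.10 in S14, 5.15 in S15 and 3.56 in S16. Of the 6 libraries with high atrial markers, 4 (S6, S7, S12 and S15) thus held Corin at 5.15 to 5.72, the other two of them (S11 and S16) at 3.88 and 3.56, and the 9 remaining libraries at 3.41 to 4.41. High atrial markers therefore did not go with high Corin in every library. The mean of the 6 ventricular markers, centred in the same way, was 0.37 in S6, 0.44 in S7, 0.38 in S12 and 0.59 in S15. It was -0.263 in S11, -0.475 in S16 and between -0.379 and 0.163 in the 9 remaining libraries. The part of ventricular markers in the values of Corin was not tested.

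The difference for Corin between AngII and control was 0.45 (95% confidence interval -0.70 to 1.61, limma, adjusted p = 0.871), and with the 6 libraries left out it was -0.53 (standard error 0.18, limma, adjusted p = 0.300), the opposite direction. AngII + ldCil was -0.33 against AngII (-1.40 to 0.74, limma, adjusted p = 1.00), and 0.56 with those libraries left out (standard error 0.19, adjusted p = 0.602). Leaving out S7 alone moved the last difference from -0.33 to 0.05. The interval for AngII against control spans folds from 0.614 to 3.05, so both lower and clearly higher levels lie within it. Corin also overlaps 5 other annotated genes, an antisense RNA among them, and none of these is in the table.

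Among the receptors, Npr2, the guanylyl cyclase receptor that prefers C-type natriuretic peptide, was the most abundant, and its own ligand gene, Nppc, is not in the table. Npr2 stood at 5.15 in S1, 5.37 in S2 and 5.12 in S3 for control, and at 4.92 in S5, 5.23 in S6, 5.30 in S7 and 5.74 in S8 for AngII. It stood at 5.27 in S9, 5.24 in S10, 5.08 in S11 and 5.33 in S12 for ldCil, and at 5.48 in S13, 5.39 in S14, 5.60 in S15 and 5.34 in S16 for AngII + ldCil. The lowest and the highest library of all 15, S5 and S8, both belonged to AngII, and 3 of the 4 AngII + ldCil libraries were above every control library. Among the members it had the narrowest intervals. AngII against control was 0.08 (95% confidence interval -0.25 to 0.42, limma, adjusted p = 0.924), which as a fold runs from 0.841 to 1.34, and AngII + ldCil against control was 0.24 (-0.10 to 0.57, limma, adjusted p = 0.855).

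Npr3, the clearance receptor, was the only member that was higher in each of the 6 libraries with high atrial markers than in any other library. In control it was 2.39 in S1, 3.15 in S2 and 2.47 in S3, and in AngII 2.14 in S5, 3.67 in S6, 3.53 in S7 and 3.20 in S8. In ldCil it was 2.80 in S9, 2.46 in S10, 3.27 in S11 and 3.24 in S12, and in AngII + ldCil 3.13 in S13, 3.11 in S14, 3.60 in S15 and 3.37 in S16. The 6 libraries with high atrial markers held the 6 highest values, 3.24 to 3.67, although the highest of the other 9, S8 at 3.20, came close. The gap was wider at the low end. The libraries highest in interferon response genes (S1, S3, S5, S9 and S10) held the lowest values, 2.14 to 2.80, and all others lay at 3.11 or above. Npr3 is also a marker of the endocardium, the inner lining of the heart. Of 11 endothelial and endocardial markers, Npr3 and Nfatc1 were higher in each of the 6 libraries than in any of the 9, and 9, including Pecam1 and Cdh5, were not. Eng, the endoglin gene, was lower in each of the 6 than in any of the 9.

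The group means of Npr3 were 2.67 ± 0.41 (SD, n = 3) for control, 3.13 ± 0.69 (n = 4) for AngII, 2.94 ± 0.39 (n = 4) for ldCil and 3.30 ± 0.23 (n = 4) for AngII + ldCil. AngII + ldCil exceeded control by 0.63 (95% confidence interval -0.07 to 1.33, limma, adjusted p = 0.849, unadjusted p = 0.0728), the smallest unadjusted p of any tested member in any comparison, with overlap between the groups and an exact permutation p of 0.0857. AngII exceeded control by 0.47 (-0.23 to 1.17, limma, adjusted p = 0.798), by 0.29 without S6, by 0.80 without S5, and by 0.00 with the 6 libraries of high atrial markers left out (standard error 0.33, adjusted p = 1.00). ldCil against control was 0.28 (-0.42 to 0.97, adjusted p = 0.966) and turned to -0.04 with the 6 libraries left out. No control library was among those 6, so their part in the differences from control was not tested.

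**Figure D3:**
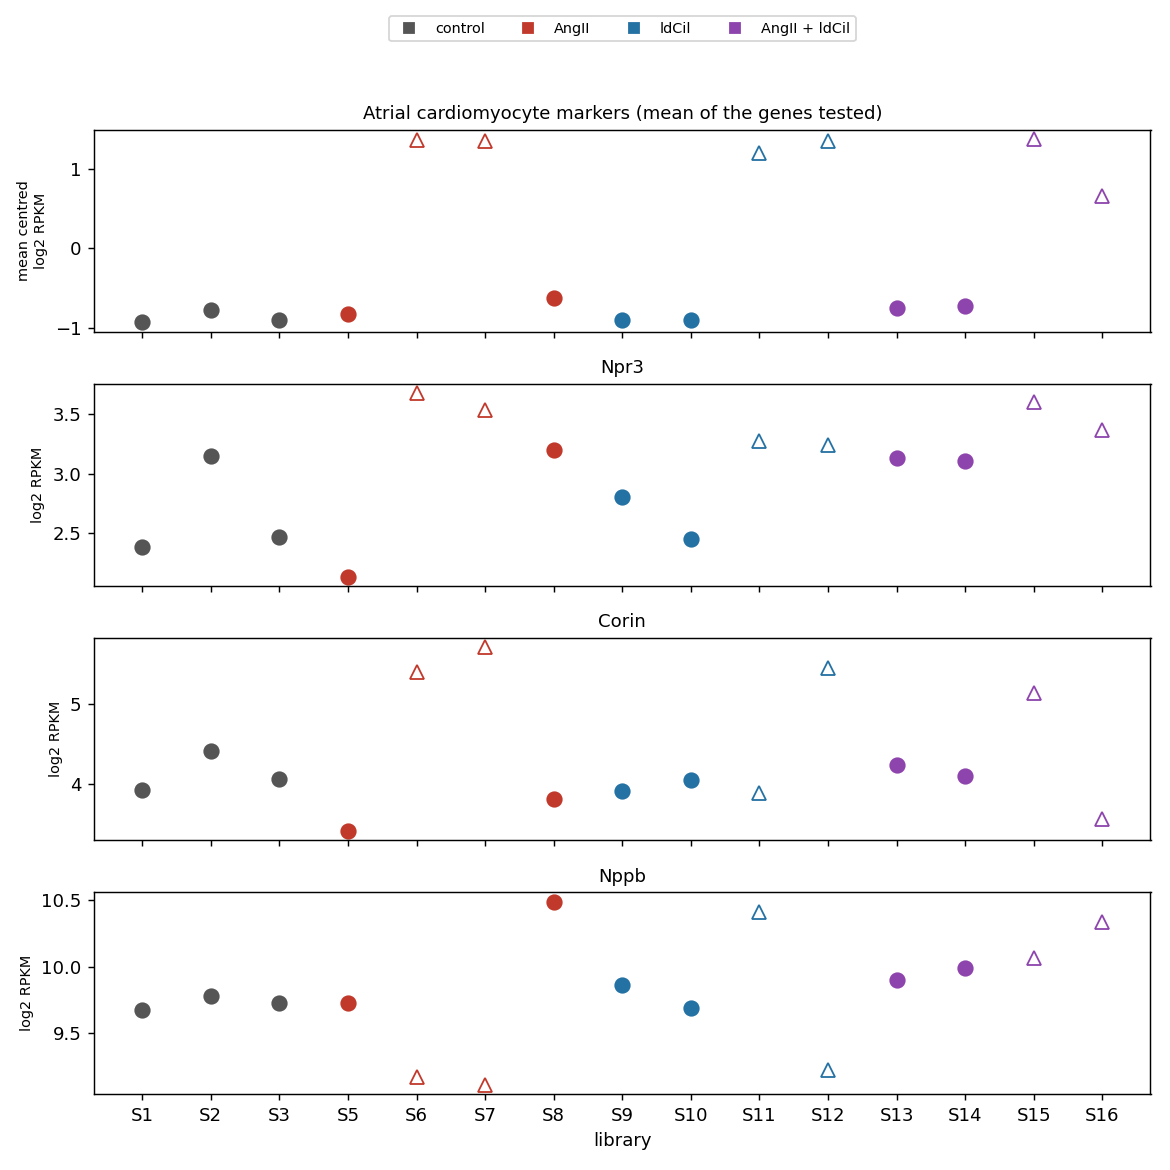
Mean of the atrial cardiomyocyte markers (top panel, log2 RPKM centred on each gene's mean over the 15 libraries) and log2 RPKM of Npr3, Corin and Nppb (lower panels) in each library (horizontal axis), coloured by treatment. Open triangles are the 6 libraries with a marker mean of 0.66 or more. Npr3 is highest in all 6, Corin in 4 of them, and Nppb is lowest in 3 of them (S6, S7 and S12) and above every control library in the other 3.

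Npr1, the receptor for atrial and B-type natriuretic peptides, was the lowest member and, with a mean log2 RPKM of -1.08, below the minimum of 0 that genes needed to be tested. It was -1.59 in S1 and -1.70 in both S2 and S3 in control, and -1.29 in S5, -0.38 in S6, -0.53 in S7 and -0.02 in S8 in AngII. In ldCil it was -3.56 in S9, -2.24 in S10, -0.96 in S11 and -0.47 in S12, and in AngII + ldCil -0.21 in S13, -1.06 in S14, -0.20 in S15 and -0.33 in S16. All AngII and all AngII + ldCil libraries were thus above every control library, by 1.11 and 1.21 on average, with an exact 2-sided permutation p of 0.0571 for each. The ldCil libraries lay on both sides of control. Npr1 also split across treatments, with the control libraries, S5, S9 and S10 at -1.29 or below and all others at -1.06 or above. Apart from S2, the lower libraries are those highest in interferon response genes.

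The separation of Npr1 from control did not extend to its ranks. At the low end of the table the libraries do not share 1 distribution, and Npr1 had the same value as 136 other genes in S1, 371 in S2 and 222 in S3, so it lay on a plateau there. Ties were fewer but present in the other groups, with 21 to 82 genes in AngII, 0 to 65 in ldCil and 13 to 113 in AngII + ldCil. Its rank, where a larger number is lower expression, was 13775 to 13878 in control, 13043 to 13937 in AngII, 13835 to 14233 in ldCil and 12718 to 14088 in AngII + ldCil, and the groups overlapped. With no filter on low values, limma gave 1.11 for AngII against control (95% confidence interval -0.26 to 2.47, adjusted p = 0.641) and 1.21 for AngII + ldCil against control (-0.15 to 2.57, adjusted p = 0.674). After quantile normalisation, which gives all libraries 1 distribution at the low end too, these differences were 0.14 (-0.76 to 1.03, adjusted p = 0.960) and 0.26 (-0.63 to 1.15, adjusted p = 0.932). That normalisation was tried after the values had been seen.

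Ankrd1, at chr19:36111961-36120099 on the minus strand, was the second of the members, with ranks from 3 to 13. In its promoter window M-CAT was found at 2 places on the strand opposite to the gene. The whole window lies inside the annotated gene given above, after its start, and overlaps an annotated exon of Ankrd1. Both stretches are printed with the match in capitals (chr19:36120048-36120055 and chr19:36119961-36119968, minus strand, GRCm38.p6, RefSeq).
Ankrd1, upstream match: aGGAATGa
Ankrd1, downstream match: tGGAATGa
Ankrd1 had a log2 RPKM of 11.40 in S1, 11.27 in S2 and 11.17 in S3 in control, and 11.27 in S5, 10.79 in S6, 10.73 in S7 and 10.99 in S8 in AngII. Of the 4 AngII libraries, 3 were below every control library, and S5 equalled S2. In ldCil it was 10.85 in S9, 10.92 in S10, 11.73 in S11 and 10.79 in S12, and in AngII + ldCil 10.99 in S13 and S14, 11.17 in S15 and 11.54 in S16. The highest library, S11, was the one in which Nppa ranked first and Ankrd1 was at rank 3.

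Ankrd1, a gene that is known to rise with hypertrophic stimuli, was on average lower in AngII than in control, by 0.33 on the log2 scale (95% confidence interval of the difference -0.82 to 0.16, limma, adjusted p = 0.797, exact permutation p = 0.143). This is a fold of 0.794 with an interval from 0.565 to 1.12. The difference stayed negative with each library left out in turn, from -0.44 to -0.26, but did not pass the test in any of these fits. For ldCil against control it was -0.21 (-0.70 to 0.28, limma, adjusted p = 0.966), and for AngII + ldCil against AngII 0.23 (-0.23 to 0.68, limma, adjusted p = 1.00), the latter turning to -0.14 when the 6 libraries were left out.

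Rcan1, at chr16:92391953-92470867 on the minus strand, has 2 starts in RefSeq, and the table gives 1 value for both. The NFAT core was found 2 times before the internal start, which gives the shorter transcript known to respond to calcineurin, and not in the window before the distal start. The window is printed for that reason (chr16:92400079-92400328, minus strand, GRCm38.p6), with TTTTCC marking the match on the opposite strand.
Rcan1, internal start: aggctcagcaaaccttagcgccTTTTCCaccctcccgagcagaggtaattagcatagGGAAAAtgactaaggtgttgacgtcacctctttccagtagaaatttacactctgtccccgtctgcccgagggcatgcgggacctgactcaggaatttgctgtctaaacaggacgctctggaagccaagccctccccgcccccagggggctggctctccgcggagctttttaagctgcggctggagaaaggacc
Rcan1 had a log2 RPKM of 6.19 in S1, 6.12 in S2 and 6.51 in S3 in control, and 6.55 in S5, 6.36 in S6, 6.05 in S7 and 6.92 in S8 in AngII. In ldCil it was 6.56 in S9, 6.39 in S10, 6.33 in S11 and 6.02 in S12, and in AngII + ldCil 6.10 in S13, 6.08 in S14, 6.35 in S15 and 6.15 in S16. S8 of AngII was the highest library, and S7 of the same group was among the lowest. AngII against control was 0.19 (95% confidence interval -0.20 to 0.58, limma, adjusted p = 0.833), and 0.04 without S8. AngII + ldCil was on average 0.30 below AngII, a fold of 0.812 (0.632 to 1.04, limma, adjusted p = 1.00, unadjusted p = 0.0964), and the groups overlapped. That difference was -0.15 without S8 and -0.44 without S7. With the 6 libraries of high atrial markers left out, AngII was 0.46 above control (standard error 0.15, limma, adjusted p = 0.296), and AngII + ldCil against AngII was -0.65 (standard error 0.17, adjusted p = 0.602).

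**Figure D4:**
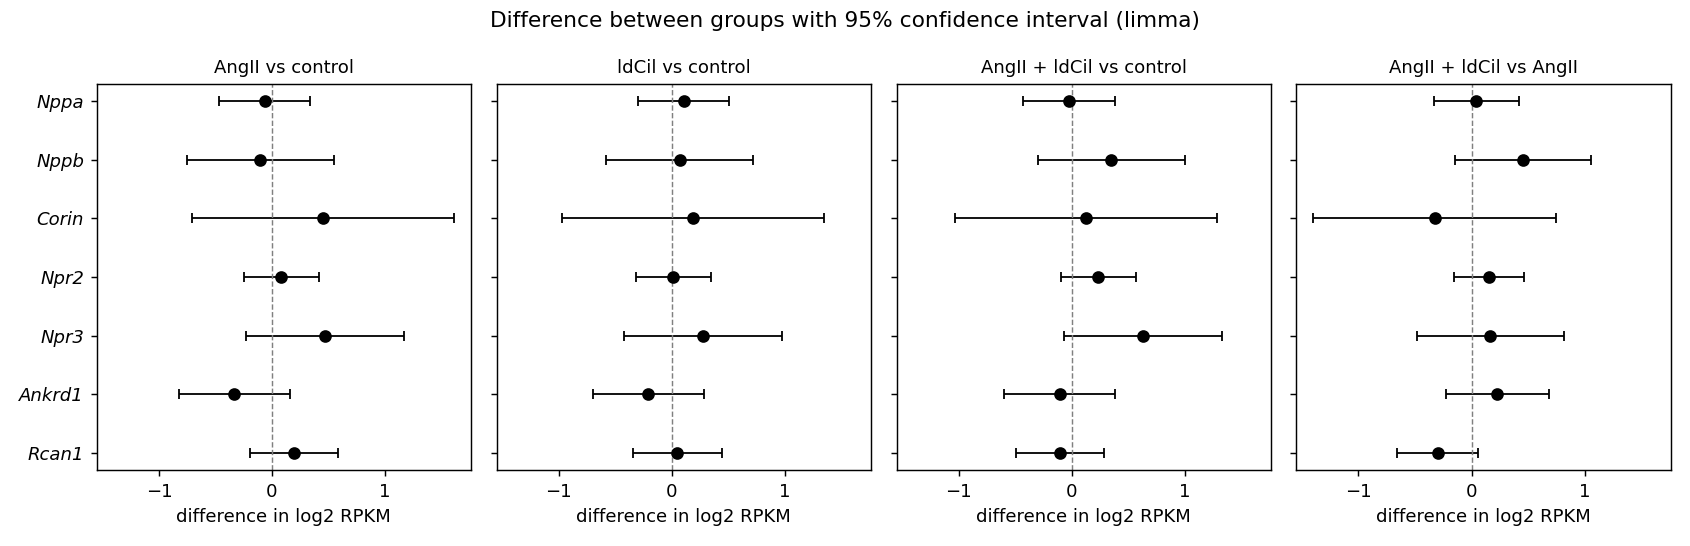
Difference in log2 RPKM between groups (horizontal axis) for the 7 tested members, with the 95% confidence interval from limma as bars and a dashed line at 0. Every interval includes 0. The widest are those of Corin, from -0.70 to 1.61 in AngII against control.

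Over the 7 members tested, the plot of differences with their intervals shows the same for each comparison. In AngII against control, 0 of 7 members passed an adjusted p of 0.05 in limma (0% of the 12848 genes tested did, the smallest adjusted p being 0.782) and 0 of 7 an unadjusted p of 0.05 (6.04% of genes). The groups did not overlap for 1 of the 8 members, Npr1, beside 8.74% of the genes tested. Npr1 is not among the genes tested, so this share and those of no overlap below do not cover genes at its level. In ldCil against control the counts were 0 of 7 adjusted (0% of genes) and 0 of 7 unadjusted (1.95%), with 0 of 8 members free of overlap (6.87%). In AngII + ldCil against control 0 of 7 passed adjusted (0%) and 0 of 7 unadjusted (5.62%), and the libraries of 2 of 8 members, Nppb and Npr1, did not overlap (13.5%). In AngII + ldCil against AngII the counts were 0 of 7 adjusted (0%) and 0 of 7 unadjusted (2.58%), with 0 of 8 free of overlap (1.55%). For the interaction, which asks whether AngII acted differently in the presence of ldCil, 0 of 7 passed adjusted (0%) and 0 of 7 unadjusted (3.86%). The largest interaction values were -0.52 for Corin (95% confidence interval -2.09 to 1.06) and 0.44 for Ankrd1 (-0.23 to 1.10), with an adjusted p in limma of 0.968 and 0.958.

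The median difference of the 7 members was 0.08 in AngII against control, 0.07 in ldCil against control, 0.13 in AngII + ldCil against control and 0.15 in AngII + ldCil against AngII, beside medians over all genes tested of 0.02, 0.00, 0.05 and 0.01. The first 3 of these comparisons share the control libraries, and both comparisons with AngII share its libraries, so these medians are not independent of each other. Calls at an adjusted p of 0.05 changed under 1 alternative. With libraries weighted by their fit to their group, 4 of 7 members passed an adjusted p of 0.05 in AngII against control (Nppb -0.46, Corin 1.45, Npr3 1.04 and Ankrd1 -0.57), beside 48.6% of all genes, and 2 of 7 in AngII + ldCil against AngII (Nppb 0.74 and Corin -1.27), beside 31.5% of all genes. The counts were 0 of 7 in ldCil against control (0.0233% of genes), 3 of 7 in AngII + ldCil against control (18% of genes) and 3 of 7 for the interaction (18.6% of genes). The weights gave S7 and S6 of AngII 3.39 and 1.65, and S5 and S8 of the same group 0.113 and 0.363. In AngII + ldCil, S13 and S14 had 3.47 and 3.88, and S15 and S16 had 0.311 and 0.253. In control, S1 had 7.01. The weighted values of AngII thus rest mainly on libraries with high atrial markers, those of AngII + ldCil on libraries without them, and those of control on S1.

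**Figure D5:**
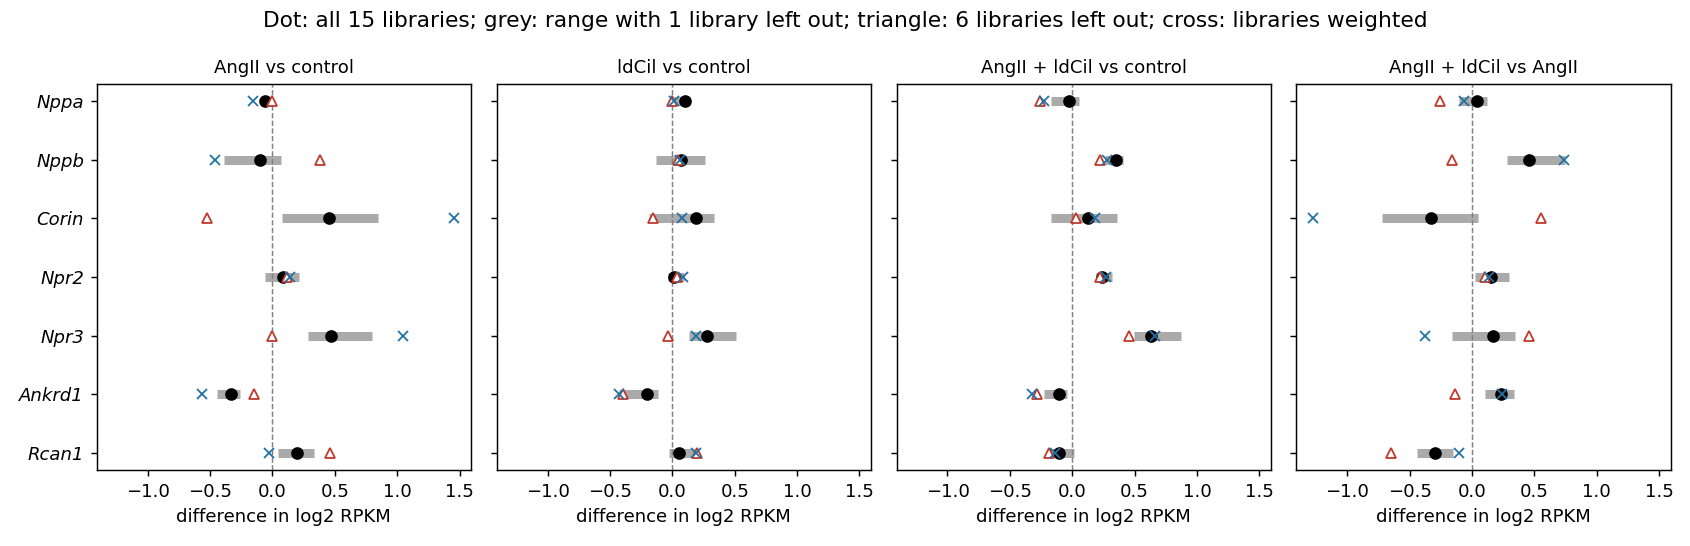
Difference in log2 RPKM (horizontal axis) for the 7 tested members with all 15 libraries (dots), over the 15 fits that each leave out 1 library (grey bars, lowest to highest), without the 6 libraries with high atrial markers (open triangles) and with libraries weighted (crosses). In AngII against control, Corin runs from -0.53 without the 6 libraries to 1.45 with weights, on both sides of 0.

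The values of the members across libraries went together in part, and these correlations over 15 libraries are given as a description, since the libraries share treatments and the split described above. Nppa and Ankrd1 had a Pearson r of 0.74, Nppb and Ankrd1 of 0.64, and Nppa and Nppb, the 2 neighbours on chromosome 4, of 0.50. Spearman's rho for these pairs was 0.59, 0.55 and 0.34, and Nppa takes only 3 values. Corin went against Nppb (r = -0.70, rho = -0.56) and Ankrd1 (r = -0.60, rho = -0.63) and with Npr3 (r = 0.64, rho = 0.49). The genes most like each member were chosen as the 3 with the highest r. For Corin these were Cmya5 (r = 0.98), a sarcomere-associated protein gene, the potassium channel gene Kcnj2 (0.97), which is among the ventricular markers, and Mif4gd (0.97). For Npr3 they were Hey2 (0.95), a transcription factor of the ventricle, C2cd2l (0.93) and Lmod2 (0.93), a protein of the thin filament. For Nppb they were Eme1 (0.89), Bcl2 (0.86) and Fam198b (0.86), for Npr2 Dnajc9 (0.92), Insig2 (0.91) and Ehd3 (0.91), and for Rcan1 Rnf115 (0.86), Tnnt3 (0.81) and Aurka (0.80). Nppa, with its 3 values, was most like Lsm11 (0.87), Ptpn13 (0.84) and Bcor (0.84), and Ankrd1 most like Hist2h3c2 (0.81), Gpr19 (0.79) and Ptpn13 (0.79).

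The other genes of the pathways were then counted, with no gene of any list passing an adjusted p of 0.05 in any of the 5 comparisons in limma. Of 23 genes of the natriuretic peptide and cGMP pathway, members included, 16 were tested, and 1 was higher at an unadjusted p of 0.05 in AngII against control, with 0 lower, where 6.04% of all genes passed in either direction. This was Pcsk6, a convertase that activates corin, at 3.09 ± 0.60 (SD, n = 3) in control and 4.18 ± 0.54 (n = 4) in AngII (difference 1.09, standard error 0.49, limma, adjusted p = 0.782). The 1 gene past that threshold in AngII + ldCil against AngII, where 2.58% of all genes passed, was Pde3a, a phosphodiesterase that degrades cAMP and is inhibited by cGMP, which was higher by 0.29 (standard error 0.12, adjusted p = 1.00). Gucy1a1, a subunit of the soluble guanylyl cyclase, had a difference of 0.61 in AngII against control (standard error 0.46, adjusted p = 0.802). The median of the 16 genes was 0.10 in AngII against control beside 0.02 over all genes.

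Of 20 tested genes of the calcineurin-NFAT pathway, Rcan1 among them, 3 were higher and 1 was lower at an unadjusted p of 0.05 in AngII against control, where 6.04% of all genes passed in either direction. Ppp3ca, a catalytic subunit of calcineurin, had the smallest p. It was 5.36 ± 0.10 (SD, n = 3) in control and 5.75 ± 0.11 (n = 4) in AngII. In ldCil and in AngII + ldCil it was 5.61 ± 0.10 (n = 4 for each). The difference between AngII and control was 0.39 (standard error 0.10, limma, unadjusted p = 0.00199, adjusted p = 0.782), and between ldCil and control 0.25 (standard error 0.10, adjusted p = 0.966). The lowest AngII library, 5.64, was above the highest control library, 5.43, and so were the lowest of ldCil, 5.505, and of AngII + ldCil, 5.529. Of all genes tested, 8.74%, 6.87% and 13.5% showed no overlap with control in AngII, ldCil and AngII + ldCil. Nfatc2 was higher by 0.53 (standard error 0.20) and Nfatc4 was lower, at -1.04 (standard error 0.41), each with an adjusted p of 0.782 in limma. Both encode calcineurin-dependent transcription factors. Between AngII + ldCil and AngII, Gsk3b, a kinase that opposes NFAT, was higher by 0.30 (standard error 0.13) and Lmcd1, a LIM domain protein linked to calcineurin signalling, was lower at -0.92 (standard error 0.43), with adjusted p-values of 1.00.

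Of 12 tested genes of ankyrin repeat proteins and titin-linked stretch sensing, 0 passed an unadjusted p of 0.05 in AngII against control, and 9 of 12 differences were above 0. Csrp3, the muscle LIM protein gene, stood at 8.20 ± 0.19 (SD, n = 3) in control and 8.84 ± 0.48 (n = 4) in AngII (0.64, standard error 0.33, limma, adjusted p = 0.782). Ankrd1 was thus 1 of the 3 genes of its list below 0. For Ttn, the titin gene, AngII + ldCil against AngII had a difference of 0.56 (standard error 0.36) and for Ldb3, a Z-disc protein gene, of 0.29 (standard error 0.23), with adjusted p-values of 1.00, and 0 of 12 passed an unadjusted p of 0.05.

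All 22 genes of the foetal gene programme and hypertrophy markers were tested, Nppa, Nppb, Ankrd1 and Rcan1 among them. In AngII against control 15 had differences above 0 and 7 below 0, with a median of 0.20 beside 0.02 over all genes. The counts were 17 and 5 in ldCil against control (median 0.10 beside 0.00) and 16 and 6 in AngII + ldCil against control (0.18 beside 0.05). These comparisons share the control libraries. At an unadjusted p of 0.05, 2 were higher and 0 lower in AngII against control, beside 6.04% of all genes. These were Myl4, the atrial and foetal essential myosin light chain gene, at 6.59 ± 0.22 (SD, n = 3) in control and 8.10 ± 0.60 (n = 4) in AngII (1.51, standard error 0.62, limma, adjusted p = 0.782), and Tnni3, the cardiac troponin I gene that replaces a foetal form after birth, at 9.23 ± 0.32 and 9.81 ± 0.31 (0.58, standard error 0.24, adjusted p = 0.782). Myl4 is itself 1 of the 8 atrial markers that separate the libraries. Xirp2, a gene of the intercalated disc, had a difference of 1.19 (standard error 0.64, adjusted p = 0.782). Against AngII, AngII + ldCil had 0 of 22 past an unadjusted p of 0.05, with -0.24 for Myh6 and 0.22 for Actc1 (standard error 0.14 for each).

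Of 20 tested transcriptional regulators of the natriuretic peptide genes, 0 passed an unadjusted p of 0.05 in AngII against control. Gata4, which encodes a GATA factor of the heart, had a difference of 0.33 (standard error 0.26, limma, adjusted p = 0.812), Hand2 of 0.27 (standard error 0.16, adjusted p = 0.786) and Tead1, which encodes a factor that binds M-CAT, of -0.43 (standard error 0.25, adjusted p = 0.786). In AngII + ldCil against AngII, 3 were higher at an unadjusted p of 0.05 and 0 lower, where 2.58% of all genes passed in either direction. They were Tbx20 by 0.83 (standard error 0.31), Tead1 by 0.55 (standard error 0.23) and Myocd, the myocardin gene, by 0.49 (standard error 0.20), each with an adjusted p of 1.00 in limma. The AngII libraries of Tead1 ran from 6.18 to 7.46 and those of AngII + ldCil from 7.28 to 8.07, so these groups overlapped.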

How the data were processed

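RNA-Seq was performed on poly(A)-captured RNA of cultured primary cardiomyocytes, giving 15 libraries in 4 groups, with groups taken from the labels. According to the submitters' processing notes, HISAT2, HTSeq and the mm10 (GRCm38) genome were used, and the versions, annotation release and strand setting are not stated there. Deposited values are log2 RPKM after conditional quantile normalisation by the authors, with no counts, so depth and its precision are unknown. Of 14337 identifiers, 14329 were matched to GENCODE M21, 12695 with the same version.

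The 12848 genes whose mean log2 RPKM was 0 or more were tested with limma 3.58.1 in R 4.3.3, with 1 mean per group over all 15 libraries, no covariate, empirical Bayes moderation with a trend on expression, 2-sided p-values and Benjamini-Hochberg adjustment over all genes tested. Exact permutation tests went over all assignments of the libraries of 2 groups. The test was checked on simulated data. Lists are described by counts and medians only. Named genes are the members, the genes of each pathway list past an adjusted p of 0.05 and its 3 with the smallest p in AngII against control and in AngII + ldCil against AngII, the 3 genes with the highest Pearson r to each member, and markers. Alternatives were no filter, a filter at 2, 1 added to RPKM, median centring, quantile normalisation, only the groups compared, no trend, library weights (arrayWeights), each library left out in turn, Spearman correlation for likeness, and, chosen after seeing the data, leaving out 6 libraries together and, for Npr1, no filter with quantile normalisation. The members and lists were chosen with earlier results of these data known. Other experiments of the study were not analysed here, and 1 gene that the naming rule picks is not reported here.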

Additional observations from a re-analysis of the deposited data

Results flagged for a closer look

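In groups of 4 libraries, a library was noted when its gap to the nearest of the others, relative to the range of the group, passed Dixon's 95% critical value. Of 24 groups checked over the 8 members, 5 held such a library, and chance alone gives about 1 in 20 groups.

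Nppa was at 11.73 in S7 of AngII, while the other 3 libraries were at 11.98, and at 12.40 in S11 of ldCil, while the other 3 were at 11.98. Both gaps are a change of 1 rank, and with the other libraries at 1 shared value any such change meets the criterion. Ankrd1 stood at 11.73 in S11 of ldCil and between 10.79 and 10.92 in the other 3 libraries. Corin was at 5.45 in S12 of ldCil and between 3.88 and 4.05 in the other 3. Npr1 was at -1.06 in S14 of AngII + ldCil and between -0.33 and -0.20 in the other 3, all below the level that was tested. S11 was thus the high library for both Nppa and Ankrd1, and S7, S11 and S12 are among the 6 libraries with high atrial markers.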

How the results depend on the processing

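For the 7 tested members and 5 comparisons, all 35 differences kept their direction and none passed an adjusted p of 0.05 with all genes fitted, with genes of a mean log2 RPKM under 2 removed, with 1 added to RPKM, with median centring, with quantile normalisation or without the trend, and likewise the 28 differences fitted with only the groups compared. In that last fit the number of members at an unadjusted p of 0.05 in AngII + ldCil against control was 2 of 7, beside 10.7% of all genes. No paired analysis was possible because the labels give no numbers that tie libraries of different groups together.

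With library weights, 12 of 35 differences passed an adjusted p of 0.05, which is 4 in AngII against control, 0 in ldCil against control, 3 in AngII + ldCil against control, 2 in AngII + ldCil against AngII and 3 for the interaction, and 4, 1, 5, 4 and 4 of 7 passed an unadjusted p of 0.05, beside 55.5%, 12.3%, 32.7%, 44.9% and 36.4% of all genes in the same fit. The direction turned for Rcan1 in AngII against control (-0.030), and in AngII + ldCil against AngII for Nppa (-0.067) and Npr3 (-0.376). The cause was not tested.

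Without the 6 libraries of high atrial markers, an alternative chosen after seeing the data that leaves 3 control libraries and 2 in each other group, 0 members passed an adjusted p of 0.05, and 2, 1, 2, 3 and 2 of 7 passed an unadjusted p of 0.05 in the 5 comparisons in the same order, beside 14%, 2.35%, 7.11%, 7.64% and 5.05% of all genes in that fit. The direction turned in 11 of 35. In AngII against control these were Nppb (0.382) and Corin (-0.525), and in ldCil against control Corin (-0.154) and Npr3 (-0.038). Against AngII, AngII + ldCil turned for Nppa (-0.255), Nppb (-0.160), Corin (0.556) and Ankrd1 (-0.140), and for the interaction Nppb (-0.209), Corin (0.71) and Npr3 (0.490). The cause was not tested.

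With each library left out in turn, no member passed an adjusted p of 0.05. The number at an unadjusted p of 0.05 ran from 0 to 1 in AngII against control (1 without S5), 0 to 1 in ldCil against control (1 without S11), 0 to 1 in AngII + ldCil against control (1 without S2 and without S5), 0 to 2 in AngII + ldCil against AngII (1 without S7, 2 without S8) and 0 to 1 for the interaction (1 without S7 and without S11). Directions that turned are given with the lowest and highest value over the 15 fits. In AngII against control they were Nppb (-0.392 to 0.069, above 0 without S6 or S7) and Npr2 (-0.063 to 0.212, below 0 without S8). In ldCil against control they were Nppb (-0.135 to 0.261, S11), Corin (-0.187 to 0.336, S12), Npr2 (-0.033 to 0.093, S1, S3, S9 or S12) and Rcan1 (-0.027 to 0.170, S2 or S9). For AngII + ldCil against control they were Nppa (-0.170 to 0.054, S13 or S14), Corin (-0.171 to 0.358, S15) and Rcan1 (-0.184 to 0.013, S3). For AngII + ldCil against AngII they were Nppa (-0.106 to 0.118, S7 or S16), Corin (-0.720 to 0.050, S7) and Npr3 (-0.165 to 0.345, S5). For the interaction they were Nppa (-0.211 to 0.041, S11, S13 or S14) and Npr3 (-0.440 to 0.070, S1, S6, S7 or S11).

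By Spearman's in place of Pearson's correlation, 2 of the 21 genes named as most like a member stayed among its 3 most like genes, with rho from 0.53 to 0.96. With no depth given, the precision of low values such as Npr1 cannot be stated, and for Nppa and Ankrd1 the values resolve ranks only. Corin overlaps an antisense gene and Nppa another. Groups held 3 or 4 libraries, and intervals were wide. High atrial markers were found in 2 of 4 libraries of each treated group and in no control library. Their part in the width of the intervals was not tested.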
